A study of Mus musculus with 9 samples.

Results

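The mitochondrial ribosome is the ribosome inside mitochondria. It translates the few messenger RNAs that the mitochondrial genome encodes, all for subunits of the respiratory chain and ATP synthase, and its own proteins are encoded in the nucleus, made in the cytosol and imported. Genes for its large subunit, which joins amino acids, carry symbols that begin with Mrpl, and genes for its small subunit, which reads the messenger RNA, carry symbols that begin with Mrps. Members were taken as the table's rows with such a symbol followed by a number, and 6 rows with pseudogene symbols that hold -ps were left out. This gave 78 genes of 45535 rows with a symbol, 49 of the large and 29 of the small subunit.

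Transcripts were measured by RNA sequencing in CD103+ dendritic cells of the lung, antigen-presenting cells that belong mostly to the type 1 conventional class (cDC1). Donor mice, of the strain given as C57/BL6j, had all received bleomycin, which causes lung fibrosis in mice, for 7 days. Their lungs were digested with collagenase and the cells isolated with magnetic beads. RNA of 5 samples was taken without culture (before culture, replicates 1 to 5), and RNA of 4 samples after 18 h in RPMI medium with serum and antibiotics (after culture, replicates 1 to 4). The mice's age and sex and the number of mice behind a sample were not given in the sources used here, and nothing says that samples came from separate mice, so p-values measure the spread between these samples. The cell type label names CD103+ dendritic cells, while the extraction text speaks of lung RNA. The series has no lung without bleomycin and no cells cultured for another time.

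Depth in rows with a symbol was 14.7 to 35.3 M reads per sample. Values are the deposited normalized counts, in which 1 read was worth 0.758 (replicate 2 after culture) to 1.79 (replicate 5 before culture). A normalized count is thus of the order of a number of reads, but differs from it by sample. All 78 members had a mean of at least 10 over the samples, the minimum for the test, and their means ran from 21.9 to 1099.8. Changes are log2 after minus before culture of (normalized count + 1), with the standard error (SE) from limma and p-values adjusted over 18202 genes, called at an adjusted p under 0.05.

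The summed level of 8 cDC1 markers was 111770 to 137940 before and 16128 to 17485 after culture, with 1 marker higher (Batf3) and 7 lower. Markers of other lung cells moved as well. Summed levels went from 10068-19016 to 899-1845 for neutrophils, 21920-31725 to 3189-4150 for endothelium, 15611-28377 to 2206-4422 for fibroblasts and 23383-37482 to 4169-7476 for alveolar epithelium, and each tested marker of these 4 lists (6 per list) was lower. The summed level of 7 macrophage markers was 32331-49635 before and 20042-33180 after (1 higher, 4 lower), that of 6 T and NK cell markers 3543-4980 and 2901-3751 (1 higher, 4 lower), and that of 4 B cell markers 1650-3013 and 1903-2594 (1 higher). The neutrophil marker Ly6g was at 0 in every sample after culture. The part of these shifts in the members' values was not tested, and in such bulk RNA fewer cells of a type and less RNA per cell cannot be told apart.

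Mitochondrial ribosomal protein transcripts did not move as a block with culture. By limma, 22 of the 78 members rose and 19 fell, and 37 did not pass. That is 52.6% of members called, against 68.8% of all tested genes, 34.2% of which were higher and 34.6% lower. On recovered reads edgeR called 69.0% and DESeq2 69.6% of all tested genes, and the call was the same for each of the 78 members. Quantile normalization called 31 members higher and 12 lower. Of all tested genes it called 7056 higher and 5768 lower, where the main fit called 6225 and 6299. The members' count of falls was 12 without replicate 3 after culture. The median change of the members was 0.00 and their SD 0.52, where all tested genes had a median of 0.01 and an SD of 1.35. The groups of samples did not overlap for 29 members, against 57.3% of all tested genes. Only 4 called members, Mrpl1, Mrpl44, Mrpl52 and Mrps28, changed at least 2-fold, against 32.7% of all tested genes.

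**Figure D1:**
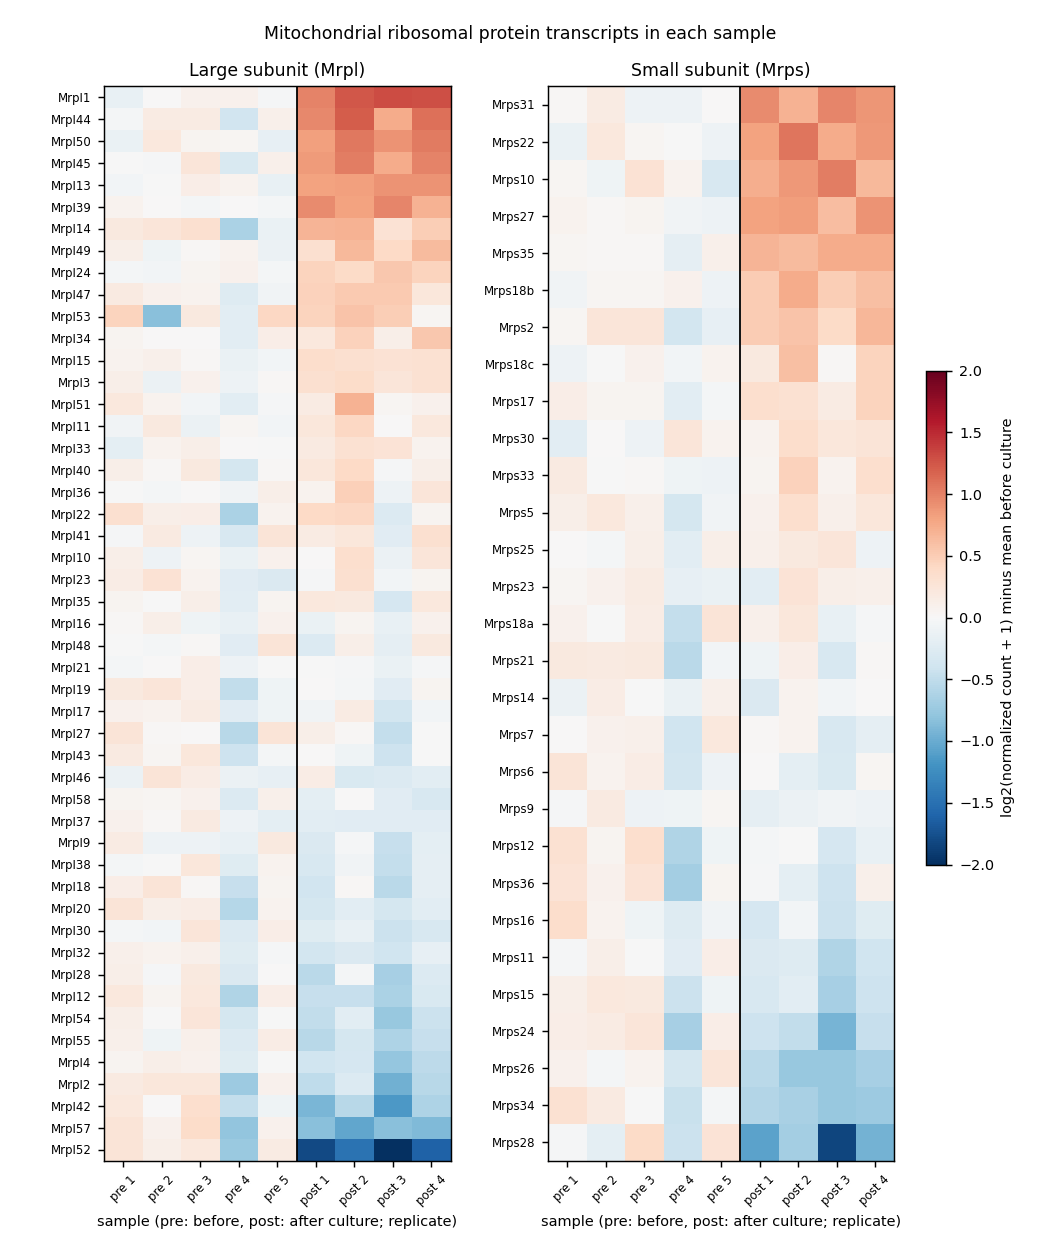
Level of each member in each sample, as log2(normalized count + 1) minus the gene's mean before culture, for the 49 large-subunit (left) and 29 small-subunit genes (right), ordered by their change; rows are genes and columns the 5 samples before (pre) and 4 after culture (post). Both subunits hold genes that rose and genes that fell, and the column of replicate 4 before culture is low in many rows.

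Both subunits held rises and falls. Of the large-subunit genes 13 rose and 13 fell (53.1% called, 17 without overlap), with a median change of -0.03 (18 and 7 under quantile normalization, and 8 falls without replicate 3 after culture). Of the small-subunit genes 9 rose and 6 fell (51.7% called, 12 without overlap), with a median of 0.04 (13 and 5 under quantile normalization). Of all tested genes 68.8% were called (34.2% higher, 34.6% lower) and 57.3% were without overlap. The large-minus-small difference of the medians, -0.07, was above 0 in some alternative analyses and below it in others, so it gives no direction. When genes were placed by where their protein sits in the structure it was 0.04, because Mrps18a and Mrps30 encode proteins found in the large subunit (mL66 and mL65), and Mrps36 encodes a protein now assigned to the oxoglutarate dehydrogenase complex.

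Averaged per sample, large-subunit genes stood at 8.51 ± 0.154 log2(normalized count + 1) before (8.24 to 8.62; SD, n = 5), and at 8.54 ± 0.121 with culture (8.39 to 8.68; SD, n = 4). Small-subunit genes stood at 8.22 ± 0.148 (7.96 to 8.32; SD, n = 5) and 8.28 ± 0.0992 (8.15 to 8.38; SD, n = 4). The ranges before and after overlapped in both subunits. Within a sample, the large-minus-small difference of these means was 0.294 ± 0.0231 before (0.259 to 0.315; SD, n = 5) and 0.265 ± 0.0227 after (0.240 to 0.295; SD, n = 4), and these ranges overlapped too. No test was made of these means, since the members were chosen with results of these data known.

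**Figure D2:**
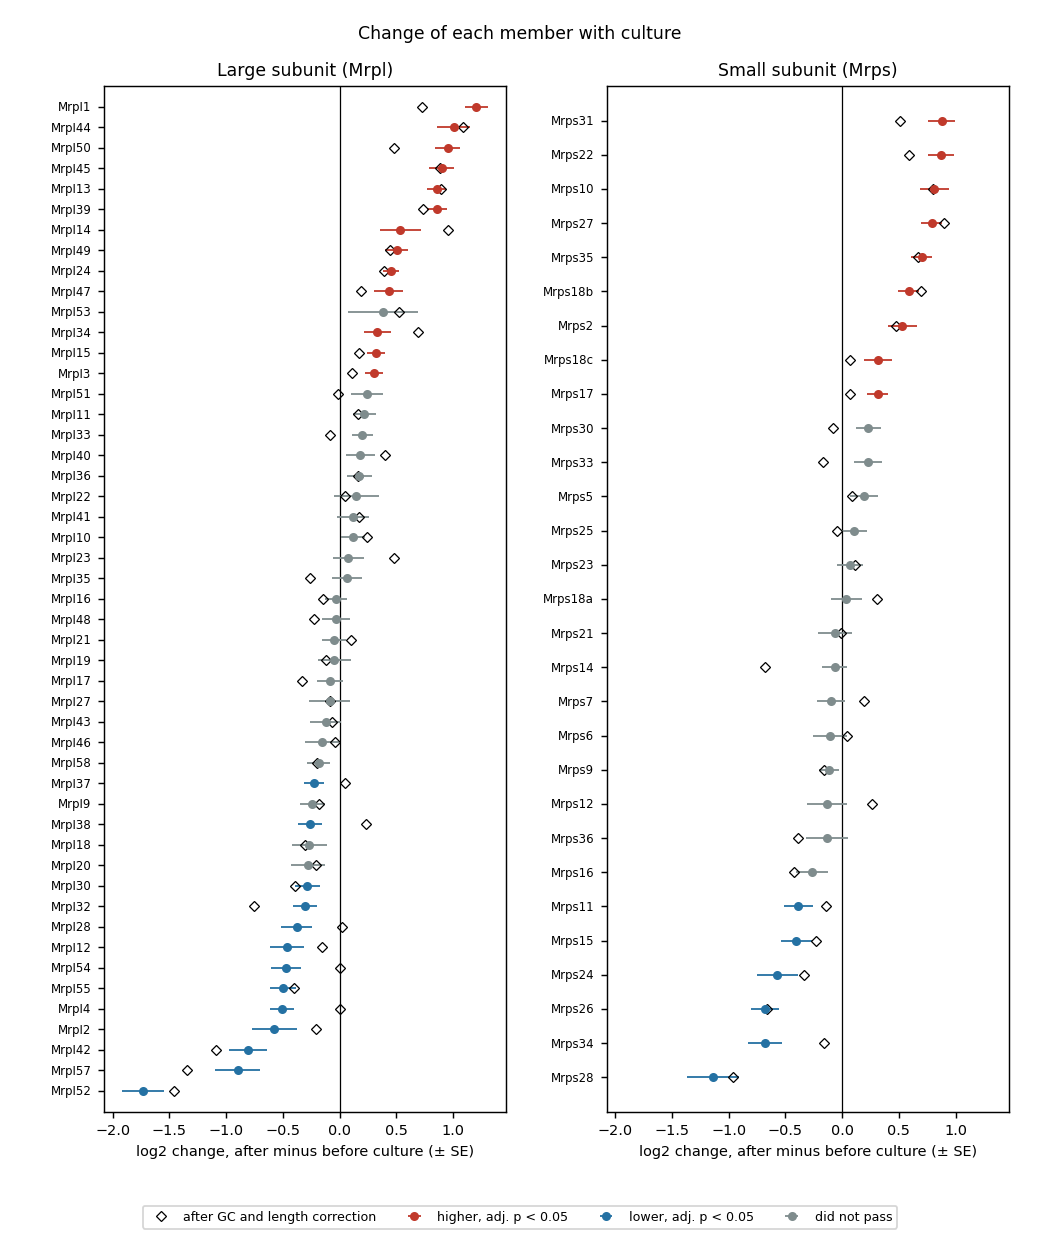
Change of each member with culture (x axis, log2 after minus before; bars, SE) in the large (left) and small subunit (right), coloured by the limma call; open diamonds give the change after a correction for transcript GC content and length. Changes run from -1.73 (Mrpl52) to 1.21 (Mrpl1), and several falls of moderate size lie near 0 after the correction.

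The largest rise was that of Mrpl1, which encodes uL1m, the protein of the mobile L1 stalk where spent tRNA leaves the ribosome. The gene lies on chromosome 5 (96209493 to 96266727, plus strand, in GENCODE M21 on GRCm38). Its normalized counts were 202, 226, 238, 238 and 220.2 in replicates 1 to 5 before and 449.6, 532, 553 and 549.6 in replicates 1 to 4 after culture. The lowest sample after culture was above every sample before. The change was 1.21 ± 0.101 (SE, limma adjusted p = 1.83e-07), 2.32-fold, and 0.72 after correction for GC content and length.

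Mrpl44 encodes mL44, a protein with a ribonuclease III-like fold near the exit of the tunnel through which the new chain leaves. It stood at 156, 181, 179.5, 122 and 172 before and at 314, 372, 270.2 and 346 after culture, without overlap (1.00 ± 0.143, SE, limma adjusted p = 3.07e-05). Its exons overlap Wdfy1 on the other strand, as 28 members do with some gene, and whether reads were counted by strand was not given in the sources used here. Mrpl45, for mL45, which holds the ribosome at the inner membrane, went from 471, 469, 562, 384 and 514 to 859, 969, 794 and 946 (0.90 ± 0.111, SE, limma adjusted p = 7.94e-06). Again the lowest sample after culture exceeded the highest before.

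Of the 8 members at the tunnel exit, 5 rose (Mrpl44, Mrpl45, Mrpl39, Mrpl24 and Mrpl47) and none fell (62.5% called, where 68.8% of all tested genes were), with a median change of 0.45. Under the GC and length correction 5 were higher and 1 lower. Mrpl39, for mL39, rose from 348 ± 11.6 (SD, n = 5) to 632 ± 57.3 (SD, n = 4), a change of 0.86. Mrpl24, for uL24m, rose from 886 ± 41.8 to 1217 ± 55.0 (SD, n = 5 and 4), 0.46. Mrpl47, for uL29m, rose by 0.43, which was 0.19 and did not pass after the GC and length correction. Mrpl17, Mrpl22 and Mrpl23 did not pass, with changes of -0.09, 0.15 and 0.08, but under the correction Mrpl17 was called lower (-0.33) and Mrpl23 higher (0.48). Mrpl23 shares 76.4% of its 50-base windows with other genes' transcripts, mostly a pseudogene, so its reads could be split. Whether tunnel-exit genes differ from other members was not tested.

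Other large-subunit rises were Mrpl50 and Mrpl13. Mrpl50, for the mitochondria-specific mL50, went from 218, 277, 250.2, 247 and 213 to 425, 502, 447 and 493 (0.95 ± 0.108, SE, limma adjusted p = 3.50e-06), and the change was 0.48 after the GC and length correction. Mrpl13, for uL13m, one of the proteins with a bacterial counterpart, went from 426 ± 32.1 (SD, n = 5) to 771 ± 25.8 (SD, n = 4), 0.86. Neither gene's groups overlapped. The remaining 5 large-subunit genes that rose, Mrpl14, Mrpl49, Mrpl34, Mrpl15 and Mrpl3, did so by 0.30 to 0.54. Under the correction Mrpl14 (0.96), Mrpl49 (0.44) and Mrpl34 (0.69) passed, and Mrpl15 (0.18) and Mrpl3 (0.11) did not. Of these 5, Mrpl14 did not pass without replicate 1 after culture, nor Mrpl34 without replicate 2 or 4 after culture.

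In the small subunit the largest rises were those of Mrps31, Mrps22, Mrps10 and Mrps27. Mrps31, for mS31, stood at 128, 141, 118, 118 and 127 before and at 245, 204, 250.2 and 233 after culture (0.88 ± 0.119, SE, limma adjusted p = 2.00e-05), and at 0.51 after the correction. Mrps22, for mS22, a protein whose loss in humans causes a mitochondrial disease, stood at 176, 224, 197, 193 and 179 before and 337, 406, 324 and 354 after (0.87 ± 0.113, SE, limma adjusted p = 1.30e-05). Mrps10, for uS10m, stood at 264, 241, 314, 268 and 204 before and 423, 466, 519 and 401 after (0.81 ± 0.129, SE, limma adjusted p = 8.09e-05). Of these genes, Mrps10 shares 24.8% of its 50-base windows with another transcript, so some of its reads could belong elsewhere. In these 3 genes every sample after culture was above every sample before.

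Mrps27 encodes mS27, a pentatricopeptide repeat protein, a class that binds RNA. It stood at 345, 335, 343, 315 and 308 before and at 578, 589.8, 502 and 611 after culture (0.79 ± 0.0908, SE, limma adjusted p = 4.26e-06). Mrps35, for mS35, rose by 0.70 from 248 ± 17.8 (SD, n = 5) to 403 ± 15.7 (SD, n = 4). Ptcd3, whose pentatricopeptide repeat protein mS39 is also part of the small subunit though its symbol is of another kind, stood at 594 ± 89.5 before (SD, n = 5) and 1007 ± 76.6 after (SD, n = 4) and was called higher (0.77, and 0.36 after the correction). None of these 3 genes had overlapping groups.

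**Figure D3:**
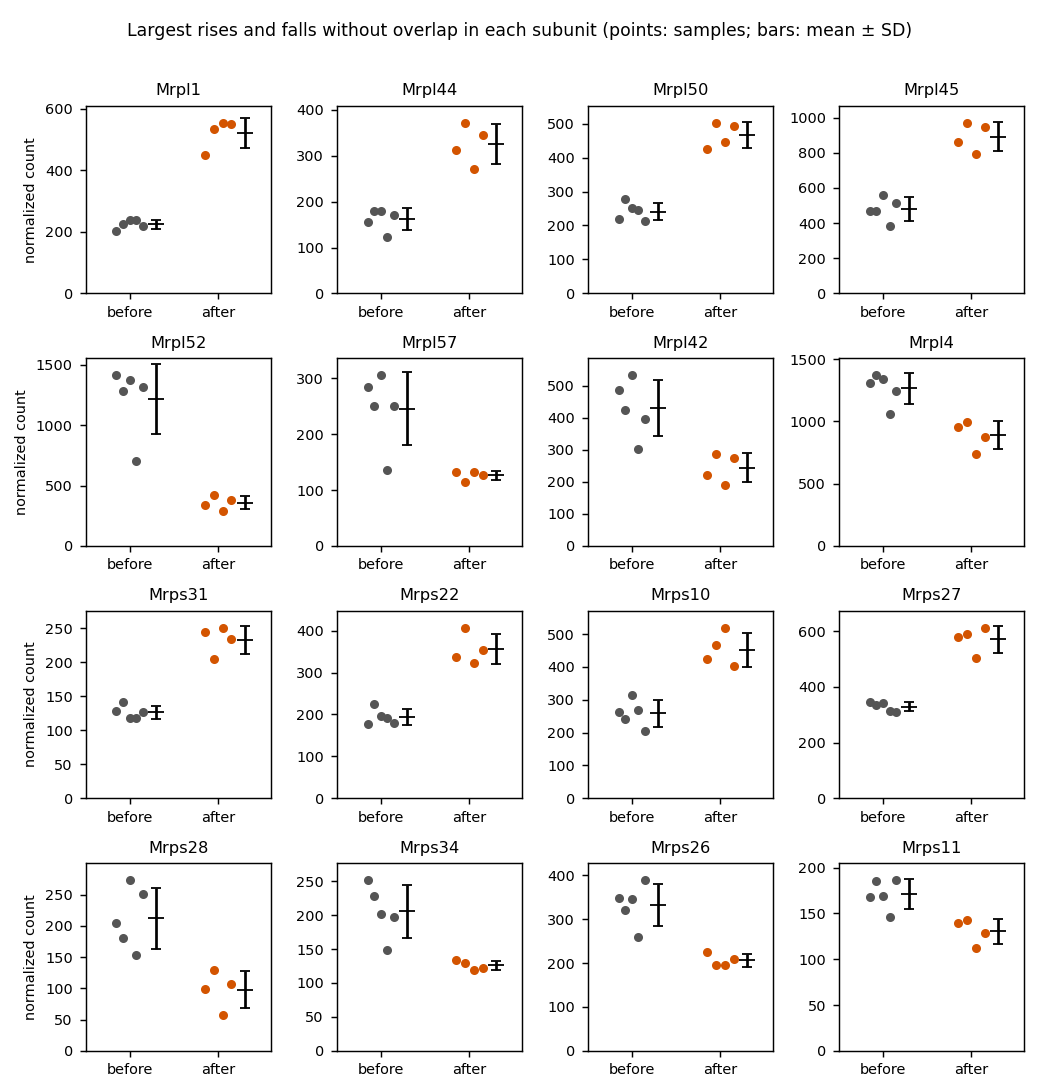
Normalized count in each sample (points) with mean ± SD (bars) for the 4 largest rises and the 4 largest falls without overlap in the large (upper 2 rows) and small subunit (lower 2 rows); y axes start at 0. The gap between groups is wide for Mrpl1 and Mrpl52 and narrow for Mrpl57, whose replicate 4 before culture (136) lies next to the highest sample after (132).

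The largest fall was that of Mrpl52, for the mitochondria-specific mL52, on chromosome 14 (54426909 to 54429756, plus strand). Its normalized counts were 1413, 1282, 1373, 707 and 1321 before and 337, 425, 292 and 383 after culture. Every sample before was above every sample after, although replicate 4 before culture lay between the other samples before and those after. The change was -1.73 ± 0.185 (SE, limma adjusted p = 2.03e-06), or 3.39-fold lower, and -1.92 without that replicate. Per kilobase of transcript Mrpl52 had the highest level of the members before culture (2917 normalized counts per kilobase), and 860 after, below Mrpl33 (1048), Mrps21 (953) and Mrpl24 (909). Such levels depend on the isoform taken for the length.

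Mrps28, for bS1m on chromosome 3 (8802146 to 8923918, minus strand), fell most in the small subunit. It stood at 204, 181, 273, 154 and 251 before and at 98.0, 129, 57.3 and 107 after culture, without overlap (-1.14 ± 0.229, SE, limma adjusted p = 0.000602). Mrpl57, for mL63, stood at 285, 251, 305, 136 and 251 before and 132, 115, 132 and 128 after (-0.90 ± 0.200, SE, limma adjusted p = 0.00128). Mrpl42, for mL42, stood at 487, 424, 532, 304 and 397 before and 223, 287, 190.2 and 274 after (-0.81 ± 0.166, SE, limma adjusted p = 0.000719). Mrpl42 shares 18.8% of its windows with another gene's transcript. In all 3 genes replicate 4 before culture was the lowest of its group and was the sample nearest to the cultured ones.

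Mrps34, for a protein needed for a stable small subunit, and Mrps26 both fell by 0.68. Mrps34 stood at 206 ± 38.5 before (SD, n = 5) and 126 ± 6.73 after (SD, n = 4), and its change after the GC and length correction was -0.16 and did not pass. Mrps26 stood at 333 ± 47.6 before and 206 ± 14.7 after (SD, n = 5 and 4) and kept its size under the correction (-0.66). Mrpl4, for uL4m, one of the proteins that line the exit tunnel, stood at 1266 ± 123 before and 892 ± 113 after (SD, n = 5 and 4), a fall by 0.51. Its change after the correction was 0.01, which is no longer a fall and did not pass. Mrpl2 and Mrps24 were called lower with overlapping groups, both at -0.57, and neither passed after the correction. Mrpl55 fell by 0.50, and Mrps11 by 0.39 (-0.15 after the correction, which did not pass). Mrpl2 and Mrps11 did not pass without replicate 3 after culture.

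The stalk of the large subunit, which recruits translation factors, held 2 of its 5 members among the falls and none among the rises. Among all tested genes, 68.8% were called (34.2% higher, 34.6% lower). Whether stalk genes differ from other genes was not tested. Mrpl12, for bL12m, stood at 897, 799, 893, 507 and 845 before and 563, 563, 495 and 627 after culture (-0.46 ± 0.151, SE, limma adjusted p = 0.0150). Mrpl54, for mL54, stood at 421 ± 62.4 before (SD, n = 5) and 303 ± 46.4 after (SD, n = 4), -0.47. The groups overlapped in both genes through replicate 4 before culture, and neither call passed after the GC and length correction. Mrpl10, Mrpl11 and Mrpl53 did not pass (0.12, 0.22 and 0.38), and Mrpl10 was called higher after the correction (0.24). Mrpl53 was the lowest member, at 9.90 to 28.1 normalized counts, and all of its 50-base windows are shared with an overlapping gene model.

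The central protuberance, the top of the large subunit that faces the small one, has 6 members. Mrpl38 was called lower (-0.26, limma adjusted p = 0.0471) and the other 5 did not pass. That is 16.7% called, against 68.8% of all tested genes. Under the GC and length correction 2 were higher and none lower. Mrpl40 was called higher (0.40). Mrpl38 was also higher, by 0.23 (limma adjusted p = 0.0342), and its call as lower was also lost when any sample but replicate 4 before or replicate 2 after culture was left out. Mrpl58, for mL62, a release factor relative that frees chains from stalled ribosomes, was one of those that did not pass (-0.19). It was called lower (-0.25) without replicate 4 before culture.

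The 3 paralogs of bacterial S18 differed in their calls. Mrps18b, for mS40, rose from 349 ± 19.6 (SD, n = 5) to 525 ± 43.1 (SD, n = 4), 0.59, without overlap. Mrps18c, for bS18m, was at 239.6 ± 12.7 before and 302 ± 52.5 after (SD, n = 5 and 4), and its call as higher (0.32, limma adjusted p = 0.0352) did not pass without replicate 1, 2 or 4 before culture, without replicate 2 or 4 after culture, or after the correction (0.07). Mrps18a, for mL66, stood at 495 ± 88.8 before and 503 ± 55.4 after (SD, n = 5 and 4) and did not pass (0.04), but was called higher after the correction (0.31). The differences between the paralogs' changes were not tested, and Mrps18b and Mrps18c share 30.9% and 22.4% of their windows with other genes' transcripts.

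Split by origin, 45 members have a bacterial counterpart and 31 are specific to mitochondria. Mrpl55, which fell, and Mrps36, which did not pass, were placed in neither class. Of those with a bacterial counterpart 12 rose and 10 fell (48.9% called, median -0.05). Of those specific to mitochondria 10 rose and 8 fell (58.1% called, median 0.12). Of all tested genes 68.8% were called (34.2% higher, 34.6% lower). Within the large subunit, 8 rose and 6 fell of 29 with a bacterial counterpart (48.3% called). Of its 19 specific to mitochondria, 5 rose and 6 fell (57.9%). Within the small subunit they were 4 and 4 of 16, and 5 and 2 of 12. Rises and falls thus occurred in each of these 4 classes, and each had a smaller share called than all tested genes.

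Members of known function that did not pass included Mrps12, for uS12m at the decoding centre, at 212 ± 50.8 before and 188 ± 18.5 after culture (SD, n = 5 and 4). Mrps30 (0.23, limma adjusted p = 0.0783) and Mrps36 (-0.14, limma adjusted p = 0.532) did not pass either. Of the small-subunit and large-subunit proteins with other symbols, Dap3 (0.03), Chchd1 (-0.07) and Gadd45gip1 (-0.33) did not pass, and Dap3 was called higher after the GC and length correction (0.16). Aurkaip1, for mS38, was called lower (-0.48) with overlapping groups, though not without replicate 3 after culture or after the correction (-0.18). Without replicate 4 before culture Gadd45gip1 was called lower (-0.47), as were 6 further members that had not passed: Mrpl9, Mrpl18, Mrpl20, Mrpl58, Mrps16 and Mrps36. Mrps30 was then called higher (0.29).

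Replicate 4 before culture stood apart in these genes. It was the lowest of the 5 samples before culture for 56 of the 78 members and the highest for 3. Its level over the mean of the other 4 had a median of 0.733 for the 19 members that fell, 0.932 for the 22 that rose and 0.813 for the 37 that did not pass. Without it 21 of the 22 rises and all 19 falls still passed. Its low mean level remained after the GC and length correction, at 8.26 for the large and 7.98 for the small subunit. The lowest values among the other 4 samples were 8.52 and 8.22. This sample also stood apart outside these genes. Over all 18202 tested genes its limma sample weight, smaller for less regular samples, was 0.419, the lowest of the 9 samples (others 0.518 to 1.84). Whether the members differ from other genes in this was not tested.

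Changes moved with the GC content of the transcript. Over the 78 members the correlation of the change with GC content was -0.347 (Pearson) and -0.377 (Spearman), and over 17785 tested genes -0.263 and -0.323; genes share libraries and are not independent, so no p is given. The median GC content was 48.8% for members that rose, 55.1% for those that fell and 50.1% for the rest. After a correction for each sample's trend over GC content and length the members' correlation was 0.155 (Pearson) and 0.142 (Spearman), and 22 members were called higher and 11 lower, where 67.0% of 17794 genes were called (33.9% higher, 33.0% lower). Of the 22 rises 17 were called higher under the correction, and of the 19 falls 8 were called lower, 10 were not called and 1 (Mrpl38) was higher. The correction without replicate 4 before culture called 19 members higher and 22 lower. Of all 17794 genes it called 6041 higher and 5835 lower. Mrpl52, Mrpl57, Mrpl42, Mrpl55, Mrpl32, Mrpl30, Mrps28 and Mrps26 were the 8 falls called lower under the correction with all samples. Whether the relation is technical was not tested.

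**Figure D4:**
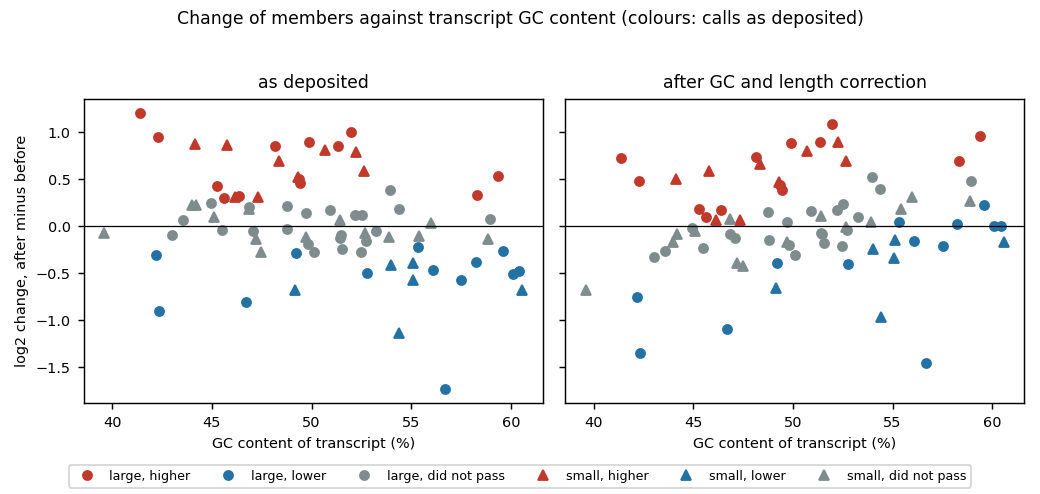
Change of each member (y axis, log2 after minus before culture) against transcript GC content (x axis, %), as deposited (left) and after the GC and length correction (right); circles are large-subunit and triangles small-subunit genes, coloured by the call as deposited. The downward slope on the left (Pearson r = -0.347) is replaced by a slight upward one on the right (0.155).

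Promoter sequences are shown to compare genes that rose with genes that fell. Nuclear genes for mitochondrial proteins are known for promoter sites of the factors NRF1, whose core is TGCGCA, and GABPA, an ETS factor whose core is CCGGAA; the YY1 core AAGATGG and the E-box CACGTG were searched as well. A gene counted once, also where the table gave it several starts. The search covered both strands of the 250 bases before each RefSeq start (GRCm38.p6), and motifs may overlap one another. A promoter was matched for 69 of the 78 members. The 150 bases before the start are printed 5′ to 3′ on the plus strand with matches to the 4 strings in capitals (TTCCGG is CCGGAA on the other strand), for tunnel-exit genes that rose (Mrpl44 at chr1:79775868-79776017 and Mrpl45 at chr11:97315566-97315715) and for genes that fell (Mrpl52 at chr14:54426759-54426908 and Mrpl57 at chr14:57826089-57826238).
Mrpl44: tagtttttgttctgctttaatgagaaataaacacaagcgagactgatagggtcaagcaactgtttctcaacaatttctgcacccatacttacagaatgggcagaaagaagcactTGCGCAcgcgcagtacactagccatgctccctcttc
Mrpl45: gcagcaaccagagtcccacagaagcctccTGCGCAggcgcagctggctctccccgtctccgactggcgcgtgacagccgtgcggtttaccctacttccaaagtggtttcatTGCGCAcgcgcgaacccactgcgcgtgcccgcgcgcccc
Mrpl52: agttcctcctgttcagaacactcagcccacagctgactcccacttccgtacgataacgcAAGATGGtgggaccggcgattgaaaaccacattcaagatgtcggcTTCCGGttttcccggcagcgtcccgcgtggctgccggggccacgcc
Mrpl57: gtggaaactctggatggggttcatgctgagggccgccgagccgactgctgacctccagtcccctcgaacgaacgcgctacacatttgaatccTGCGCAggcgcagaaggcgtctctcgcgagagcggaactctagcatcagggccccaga
The string TGCGCA is present in the printed promoters of Mrpl44, Mrpl45 and Mrpl57, so in genes of both directions. CCGGAA was found in 28 of the 69 members' promoters (40.6%), against 22.8% of tested genes and 13.6% of all genes with a promoter in the table. TGCGCA was found in 18 (26.1%), against 11.96% and 7.36%. CACGTG was found in 5 (7.25%, against 9.33% and 6.86%) and AAGATGG in 6 (8.70%, against 5.10% and 5.18%). By call, CCGGAA was in 8 of 19 promoters of members that rose, 6 of 14 of members that fell and 14 of 36 of the rest. In the same order TGCGCA was in 4, 2 and 12, CACGTG in 1, 2 and 2, and AAGATGG in 1, 3 and 2. Differences between the calls were not tested. A match is a description of these letters and not evidence of binding.

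The cytosolic ribosomal proteins, which build the ribosomes of the cytosol, were mostly called lower in the same fit. Of 89 genes 84 were tested, and 80 fell and 2 rose (Rps27l and Rpl7l1), with a median change of -1.01. The 2 mitochondrial subunits had 13 falls of 49 and 6 of 29. Of the tested cytosolic genes 97.6% were called, against 68.8% of all tested genes (34.2% higher, 34.6% lower). After the GC and length correction 79 cytosolic genes were lower. The difference between the lists was not tested, because lists are described here only by counts and medians.

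In the lists of other genes for mitochondrial translation, rises outnumbered falls, while the share called, at 73.1% of assembly factors, 71.4% of translation factors and 70.0% of synthetases, was near the 68.8% of all tested genes (34.2% higher, 34.6% lower). Of 26 assembly and rRNA modification factors 15 rose and 4 fell (median 0.29). Mterf4, needed to assemble the ribosome, rose by 1.31 and Fastkd2, which binds the large-subunit rRNA, by 0.90 (0.52 after the GC and length correction), while Rbfa, a small-subunit assembly factor, fell by 0.90 (-0.42 after it). Of 14 translation factors 8 rose and 2 fell (median 0.52), with rises of the recycling factor Gfm2 (1.12) and the initiation factors Mtif3 (1.01) and Mtif2 (0.76, and 0.44 after the correction). Of 20 aminoacyl-tRNA synthetases and related enzymes 9 rose and 5 fell (median 0.13), led by Ears2 (1.23) and Hars2 (0.65), while Vars2 fell by 0.71, which was -0.16 and did not pass after the correction. Under the correction 7 of the synthetases were higher and 2 lower.

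Of 16 genes of mitochondrial transcription and RNA stability 8 rose and 3 fell (68.8% called, median 0.18), and under the GC and length correction 5 were higher and 4 lower (median 0.06). Lrpprc, which stabilizes mitochondrial messenger RNA, rose by 0.67. Polg2 fell by 1.44, and is in this list although it encodes a subunit of the mitochondrial DNA polymerase. Of 13 mitochondrially encoded genes that the table lists, 3 were not tested: mt-Co2, mt-Atp6 and mt-Atp8, whose means were 0.19 to 1.81 in either group, near 0 for genes that every cell with mitochondria uses. Of the other 10, 9 were called higher and none lower (median 0.67). That is 90.0% called, against 68.8% of all tested genes. Under the GC and length correction this list turned, with 2 higher, 4 lower and a median of -0.16. For the list of translation factors the correction left 9 higher and 1 lower, and for the assembly factors 17 and 3.

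**Figure D5:**
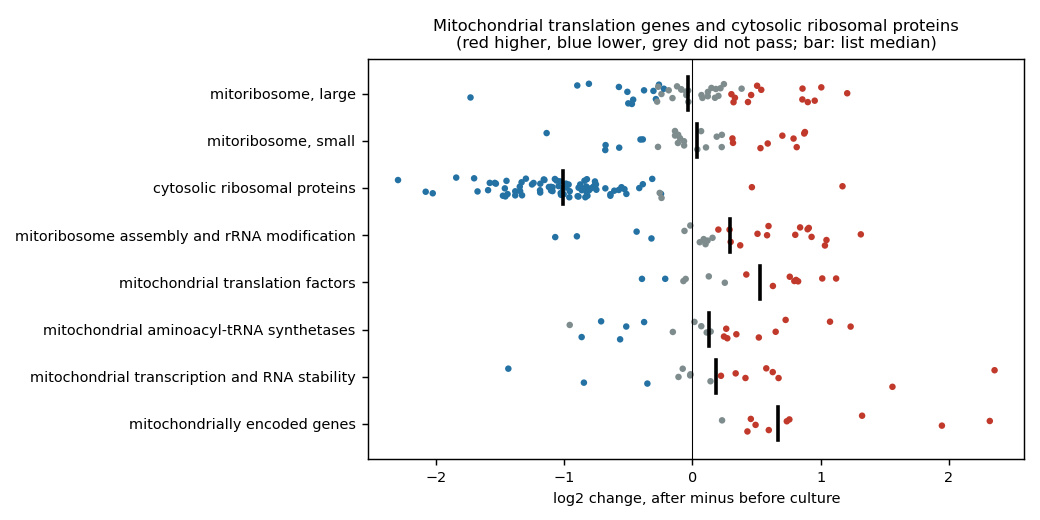
Change of each gene (x axis, log2 after minus before culture; points) in the 2 mitochondrial ribosomal subunits and in the companion lists (rows); red points were called higher, blue lower, and grey did not pass, and the bar is the list's median. Medians are -0.03 and 0.04 for the 2 subunits, -1.01 for cytosolic ribosomal proteins and 0.52 for translation factors.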

How the data were processed

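RNA sequencing covered 9 samples, grouped by title (5 before, 4 after culture), and every column of the table was matched by library name. The authors deposited normalized counts per gene in 1 table, used here as a non-negative signal; every value (100%, relative tolerance 1e-06) was a whole multiple of the worth of 1 read in its sample. The submitters' processing notes name DESeq2 and GRCm38 with no role; aligner, annotation and strandedness were not given in the sources used here. Rows without a symbol (3782) were left out.

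The fit was limma 3.58.1 in R 4.3.3 on log2(value + 1), group as the only term, mean-variance trend, over 18202 genes with a mean of at least 10, with Benjamini-Hochberg adjustment and a threshold of 0.05. Alternatives were pseudocounts of 0.5 and 8, no filter or a minimum mean of 50, TMM, upper quartile and quantile scaling, sample weights, edgeR 4.0.16 and DESeq2 1.42.0 on recovered reads, a replicate block, leaving out each sample, other subunit assignments, and a GC and length correction (mgcv 1.9.3, 97.8% of tested genes). The combination of that correction with leaving out replicate 4 before culture was chosen after seeing the data. GENCODE M21 (GRCm38.p6) gave lengths, GC content and positions and may not be the authors' annotation. RefSeq (GRCm38.p6) gave promoters.

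Named genes were the 4 largest rises and falls without overlap per subunit, the members highest per length, members that did not pass, members fixed by role, and up to 3 genes of each companion list; others (Mrpl13, Mrpl39, Mrpl24, Mrpl47, Mrpl2, Mrps24, Mrps35 and the like) were chosen after their values were seen. Members and lists were chosen with earlier results of these data known. On simulated counts for this comparison with dispersion 0.02, limma recovered 89 of 97 genes changed by 1 on the log2 scale and 103 of 103 changed by 2, among 18192 genes, with 2.54% of calls false; with dispersion 0.1 it recovered 25 of 105 and 93 of 95 among 18196 genes, with 4.07% false. Only the genes counted here were changed in the simulations, while 68.8% of tested genes were called in the data. The simulated rates may therefore not hold for the data. Figures used Python 3.11.15 and matplotlib 3.10.9.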

Additional observations from a re-analysis of the deposited data

Results flagged for a closer look

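Among 156 pairs of a member and a group, 12 had a highest or lowest sample whose gap to the next one was a larger part of the group's range than Dixon's 95% limit. Chance alone flags about 1 in 20 groups. Of these 12 pairs 8 were replicate 4 before culture, in each case as the lowest sample. Its normalized counts were 266.2 for Mrpl20 (other samples 417 to 473), 707.3 for Mrpl52 (1282 to 1413), 377.5 for Mrpl58 (467 to 487), 507.2 for Mrpl12 (799 to 897), 217.6 for Mrpl2 (381 to 424), 217.6 for Mrps35 (251 to 265), 290.4 for Mrps24 (505 to 549) and 164.1 for Mrps36 (276 to 319.7). The same sample was lowest in mean log2 level, at 8.242 for the large subunit, 7.959 for the small subunit and 8.137 for all members.

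After culture, Mrpl37 was at 610.5 in replicate 4, where the other samples lay within 615.6 to 616.5, so a gap of a few counts met the limit. In replicate 3, Mrpl35 was at 205.6 (others 298 to 300.3) and Mrps24 at 242.9 (others 329.8 to 346.3). In replicate 2, Mrpl51 was at 526.2 (others 332 to 362).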

How the results depend on the processing

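Of the 41 members called, 21 kept their call in all 23 other analyses (15 higher, 6 lower), 29 in all but those with the GC and length correction, and 31 whenever 1 sample was left out. Counts of higher members stayed within 1.5 times of 22, and edgeR, DESeq2, TMM scaling and both pseudocounts changed no member's call. Higher members numbered 31 under quantile normalization. Lower members numbered 12 under quantile normalization and 11 under the GC and length correction (7 and 7 in the large subunit), and 12 to 25 when 1 sample was left out (8 to 17 in the large subunit), fewest without replicate 3 after culture. The median change of the large subunit was 0.15 under quantile normalization. That setting also moved the median of all tested genes, from 0.006 to 0.098. The large-minus-small difference of medians was 0.0288 under quantile normalization, 0.0366 by place in the structure, -0.0230 with sample weights, -0.0181 under the GC and length correction, 0.0247 with that correction and without replicate 4 before culture, and from -0.115 (without replicate 4 after culture) to 0.0116 (without replicate 4 before culture) when 1 sample was left out; the cause was not tested.

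Among the 41 members called, the change took the other sign under the GC and length correction in Mrpl37 (0.0516), Mrpl54 (0.0028), Mrpl4 (0.0083), Mrpl38 (0.23) and Mrpl28 (0.0256). With replicate 4 before culture also left out it did so in Mrpl37 (0.0613), Mrpl4 (0.0029) and Mrpl38 (0.23), and Mrpl35, which had not been called, was called lower (-0.34). Other members that had not been called also changed sign under the correction, such as Mrps33 (0.23 to -0.17) and Mrps12 (-0.14 to 0.27). The cause was not tested.

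Replicate numbers in the titles gave correlations of 0.0807, 0.0796, -0.2131 and -0.0403 between same-numbered samples, and those in the library names 0.0807, 0.247, 0.3494 and 0.0447, so neither was taken as pairing. Each sample after culture correlated best with the sample before culture of its own library number, a hint from the data only. With a replicate block by title number 8 large-subunit members were lower and the large-minus-small difference was -0.0264; with a block by library number it was -0.0230. Depth limits Mrpl53 most, at 9.90 to 28.1 normalized counts.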

Other observations

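Lars2, for the mitochondrial leucyl-tRNA synthetase, stood far above the other synthetases and varied widely, at 10185 ± 7425 normalized counts before (SD, n = 5) and 5046 ± 3466 after culture (SD, n = 4), and did not pass limma's threshold. Of the mitochondrially encoded genes, mt-Co1 was highest, at 153520 ± 15249 before and 216610 ± 29127 after (SD, n = 5 and 4). In the same table mt-Co3 stood at 8.44 ± 3.11 before and 45.3 ± 12.5 after (SD, n = 5 and 4), and mt-Nd4l at 19.7 ± 11.2 and 72.9 ± 14.1 (SD, n = 5 and 4), so their rises rest on few reads.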
